A study of Danio rerio with 2 samples.

Results

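miRNAs that mark the gut, the liver and the pancreas were examined in the small RNA of whole zebrafish embryos at 48 hpf. Every listed miRNA of the miR-122, miR-192, miR-194, miR-216, miR-217 and miR-375 families was taken by name, which gave 8 of the 173 miRNAs listed, deposited under the names mir-122, mir-192, mir-194a, mir-194b, mir-216a, mir-216b, mir-217 and mir-375 (written miR below). The data comprised 1 library of Tbx5 depleted embryos (Tbx5 morphants) and 1 library of embryos injected with a control morpholino (MO-Ct embryos), each made from total RNA of 50 pooled embryos of the AB strain injected at the 1-cell stage. The labels give 1.5 ng of MO-Tbx5a for the Tbx5 morphants and 1.5 ng of MO-Ct for the control embryos. The methods of the study add a morpholino against the paralog, MO-Tbx5b, and describe Tbx5 depleted embryos picked by eye for the heartstring (hts) phenotype. A morpholino is a synthetic antisense strand that keeps a bound transcript from being translated or spliced, so the depletion was transient and the gene itself was intact. With 1 library per condition no difference below has a replicate check, and no test between the conditions was made. Embryos of both libraries were injected. The effect of Tbx5 depletion, other effects of the morpholinos used and the selection of embryos cannot be told apart.

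miRNAs are short RNAs that pair with messenger RNAs through a seed near their 5′ end and lower the stability or the translation of these targets. The digestive organs of the zebrafish form from the endoderm, and by 48 hpf the gut tube, the liver bud and the pancreas are laid down but still growing. miR-122 is the dominant miRNA of hepatocytes, miR-192 and miR-194 are enriched in the gut epithelium, miR-216 and miR-217 mark the exocrine pancreas, and miR-375 marks the islets of the endocrine pancreas, where its knockdown in zebrafish disrupts islet formation. Whole embryos were sequenced and only small RNAs were measured, so these organs could not be checked by the messenger RNAs that define them. In such a mixture, fewer cells of an organ and less of a miRNA per cell cannot be told apart.

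Levels are given in rpm, the reads of a miRNA scaled so that all listed miRNAs of a library sum to 1000000. All 173 values of each library were whole multiples of what 1 read is worth, within the rounding of 0.005 rpm, and the smallest totals for which this holds, 580312 reads in Tbx5 morphants and 1150157 in MO-Ct embryos, were taken as the depth. The FC of a miRNA is its rpm in Tbx5 morphants over its rpm in MO-Ct embryos, without a pseudocount. The interval in parentheses after a FC is its 95% interval, derived from the exact Clopper-Pearson limits for the fraction of its reads that Tbx5 morphants contributed. It covers counting error only, and reads copied by PCR are not independent molecules, so it compares the 2 libraries and not the conditions. The share of an ordinary miRNA was slightly lower in Tbx5 morphants. The 107 miRNAs above 200 rpm in both libraries had a median FC of 0.910, a log2 shift of -0.14. As rpm sum to a fixed total, this is a shift in shares of reads and not in amounts. miR-21 had 148003 rpm in Tbx5 morphants, against 88456 rpm in MO-Ct embryos, a FC of 1.67. The rpm left without the 3 most abundant miRNAs (miR-9, miR-206 and miR-21) had a ratio of 0.907 between the libraries. The part of miR-21 in the median shift was not tested. Among markers of other tissues, the summed FC was 1.18 for 3 skin miRNAs, 0.910 for 2 neural miRNAs and 0.902 for 3 hair cell and eye miRNAs. The neural sum was set mostly by miR-9 (191730 rpm in Tbx5 morphants, against 210670 rpm in MO-Ct embryos), while miR-124 had a FC of 0.683 (0.574 to 0.810). In the hair cell and eye list the lowest FC was 0.676, for miR-96. The summed FC was 1.07 for 6 muscle miRNAs, a sum set mostly by miR-206 (154331 rpm in Tbx5 morphants, against 143278 rpm in MO-Ct embryos), while 4 of the 6 had a FC below 1 and their median FC was 0.946. For 2 red blood cell miRNAs, at 94.8 rpm in Tbx5 morphants against 180 rpm in MO-Ct embryos, it was 0.527, with a FC of 0.464 (0.326 to 0.647) for miR-451 and of 1.15 (0.493 to 2.54) for miR-144. The part of these shifts in the values below was not tested.

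The digestive organ miRNAs together held 1.86% of the reads of the Tbx5 morphant library (95% interval 1.82 to 1.89) and 2.31% of those of the MO-Ct library (2.28 to 2.34). Their summed FC was 0.805 (0.787 to 0.823). miR-217 made up 80.1% of these reads in Tbx5 morphants and 81.7% in MO-Ct embryos, so the sum follows miR-217. Without miR-217 the other 7 summed to 3700 rpm in Tbx5 morphants, against 4236 rpm in MO-Ct embryos, a FC of 0.873 (0.830 to 0.919). All 7 miRNAs listed above 0 in both libraries had a FC below 1 as deposited, where 67.3% of all miRNAs with a FC did, but miR-375 and miR-194a were above 1 after division by the median FC. In 4 of these 7 the interval lay below 1, against a background of 45.7%, and in 0 of 7 it lay above 1, against 17.9%. Set against the median FC of 0.910 instead of 1, the interval of 1 of the 7, miR-217, lay below it, where the background was 34.0%. The median FC of the 7 was 0.878, beside 0.897 for all 162 miRNAs above 0 in both libraries.

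**Figure D1:**
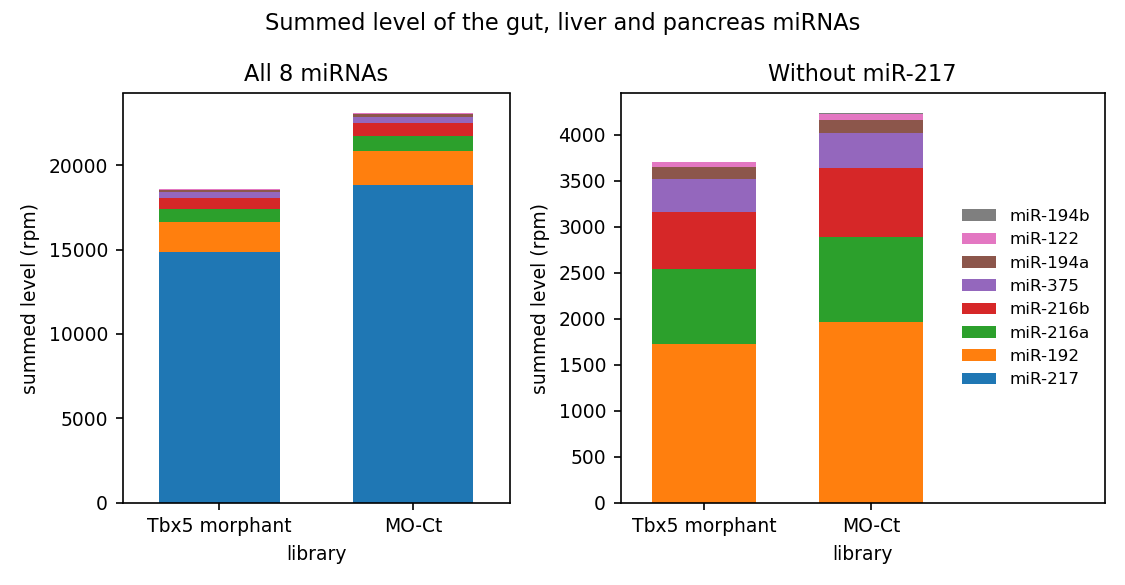
Stacked bars show the summed level in rpm of the gut, liver and pancreas miRNAs in the Tbx5 morphant and the MO-Ct library, with all 8 miRNAs on the left and without miR-217 on the right. The blue block of miR-217 takes 80.1% of the Tbx5 morphant bar and 81.7% of the MO-Ct bar. The layers above it are drawn in a fixed order, and miR-194b, at 0 rpm in Tbx5 morphants, has no layer there.

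None of the 8 was past the thresholds that the study applied, a change of at least 1.8-fold and more than 200 rpm, here in MO-Ct embryos. The background, with this minimum in MO-Ct embryos, was 4.05% of all miRNAs. A figure legend of the study sets the minimum in the Tbx5 depleted embryos instead. With more than 200 rpm required in Tbx5 morphants the number was 0 as well, and the background for that choice was not counted. Without the minimum rpm, 1 of the 8 was at least 1.8-fold lower (miR-194b, for which Tbx5 morphants had 0 rpm) against a background of 15.6%, and 0 were at least 1.8-fold higher, against 1.73%.

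The order of the levels was the same in both libraries. miR-217 came first, followed by miR-192, miR-216a, miR-216b, miR-375, miR-194a, miR-122 and miR-194b. Each neighbour in this order differed from the next beyond counting error in both libraries, except that miR-122 and miR-194b were compared in MO-Ct embryos only. The closest neighbours were miR-216a and miR-216b. Their levels had a ratio of 1.32 (95% interval 1.15 to 1.52) in Tbx5 morphants and 1.24 (1.13 to 1.36) in MO-Ct embryos. Levels of different miRNAs were compared as rpm, without a correction for how efficiently each sequence is cloned.

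**Figure D2:**
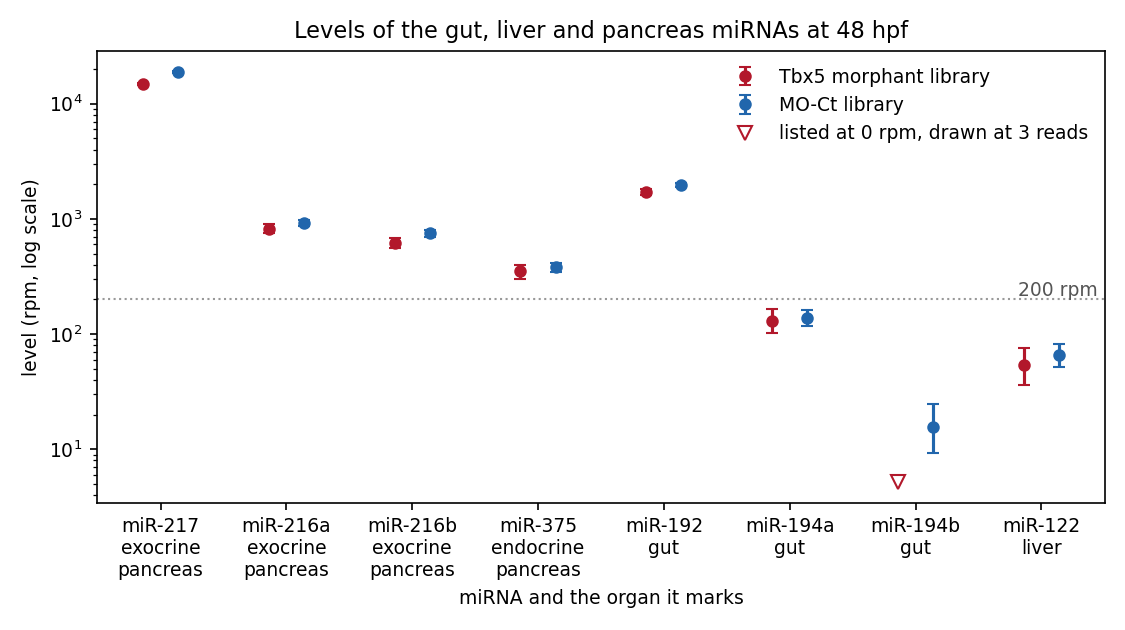
The level of each miRNA in rpm on a log axis is shown for the Tbx5 morphant library (red, left of each pair) and the MO-Ct library (blue), with 95% counting intervals as bars, the exocrine and endocrine pancreas first, then gut and liver. miR-217 sits at 14885 rpm in Tbx5 morphants and at 18853 rpm in MO-Ct embryos, miR-194a, miR-194b and miR-122 lie under the dotted line at 200 rpm, and the open triangle marks miR-194b, listed at 0 rpm and drawn at 3 reads.

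Among the digestive organ miRNAs, miR-217, which marks the exocrine pancreas, had the most reads, while the other exocrine markers, miR-216a and miR-216b, were below miR-192 of the gut. miR-217 had 14885 rpm in Tbx5 morphants (8638 reads), against 18853 rpm in MO-Ct embryos (21684 reads). Among all miRNAs it ranked 14 in Tbx5 morphants and 12 in MO-Ct embryos, and which cells its reads came from was not measured. Its FC was 0.790 (0.770 to 0.810), the lowest among the digestive organ miRNAs listed above 0 in both libraries. It stayed below 1 with an interval that excluded 1 under each of the 4 rescalings run, with values from 0.868 to 0.888.

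miR-216a had 820 rpm in Tbx5 morphants (476 reads), against 925 rpm in MO-Ct embryos (1064 reads), a FC of 0.887 (0.794 to 0.989). miR-216b had 620 rpm in Tbx5 morphants (360 reads), against 748 rpm in MO-Ct embryos (860 reads), a FC of 0.830 (0.732 to 0.939). As deposited, both intervals lay below 1, that of miR-216a ending just below it, at 0.989, and that of miR-216b at 0.939. Both included 1 after division by the median FC of 0.910, where miR-216a was at 0.974 and miR-216b at 0.912. The ratio of the FC of miR-216a to that of miR-216b was 1.07 (0.904 to 1.26), which includes 1. In RefSeq's zebrafish genes (GRCz12tu assembly) miR-217, miR-216a and miR-216b follow one another with no other gene starting between them, inside the protein-coding gene si:dkeyp-34c12.1. The deposited entries join a pair of loci for each of these 3 miRNAs, whereas that table gives each 1 gene that carries both locus names.

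Although they are neighbours in the genome, the members of this cluster differed widely in level. In FC they differed beyond counting error only for miR-217 relative to miR-216a. miR-217 exceeded miR-216a by 18.1 times (16.5 to 19.9) in Tbx5 morphants and by 20.4 times (19.2 to 21.7) in MO-Ct embryos. It exceeded miR-216b by 23.99 times (21.6 to 26.7) in Tbx5 morphants and by 25.2 times (23.6 to 27.0) in MO-Ct embryos. The FC of miR-217 relative to that of miR-216a was 0.890 (0.796 to 0.997), whose upper end nearly touched 1, and relative to that of miR-216b it was 0.952 (0.838 to 1.08), which includes 1. Together the 3 miRNAs of the exocrine pancreas had 16326 rpm in Tbx5 morphants, against 20526 rpm in MO-Ct embryos, a FC of 0.795 (0.777 to 0.815).

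miR-375, of the endocrine pancreas, had 350 rpm in Tbx5 morphants (203 reads), against 379 rpm in MO-Ct embryos (436 reads). Its FC was 0.923 (0.777 to 1.09), so no difference was detectable at this depth. After division by the median FC it was 1.01 (0.854 to 1.20), and after division by the trimmed mean ratio 1.04 (0.874 to 1.23). The 40 miRNAs nearest to it in level had a median FC of 0.741, and relative to these miR-375 was at 1.246 (1.05 to 1.47). That interval takes the median of the 40 as exact and leaves out their spread. The entry joins miR-375-1 and miR-375-2, which lie in different places of the genome, and their reads could not be separated. miR-375-1 lies inside tmem198ab and close to the crystallin gene cryba2a, and miR-375-2 lies beside its paralog cryba2b.

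Among miR-192, miR-194a and miR-194b, which mark the gut, miR-192 had the highest level in the whole embryos. It had 1725 rpm in Tbx5 morphants (1001 reads), against 1964 rpm in MO-Ct embryos (2259 reads). Its FC was 0.878 (0.814 to 0.947), and after division by the median FC it was 0.965, with an interval of 0.895 to 1.04 that included 1. miR-194a had 131 rpm in Tbx5 morphants (76 reads), against 139 rpm in MO-Ct embryos (160 reads), a FC of 0.941 (0.707 to 1.24). This was the highest FC among the digestive organ miRNAs, and its interval included 1. After division by the median FC it was 1.03. In the RefSeq table miR-194a and miR-192 are direct neighbours inside a long non-coding RNA gene without a name, between wdr74 and ehd1b. The levels of these neighbours differed far more than their FC. miR-192 exceeded miR-194a by 13.2 times (10.4 to 16.9) in Tbx5 morphants and by 14.1 times (12.02 to 16.7) in MO-Ct embryos, while the ratio of their FC was 0.933 (0.698 to 1.26).

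miR-194b lies apart from that pair, between ehd1a and ubxn1, and ehd1a is the paralog of the ehd1b gene beside miR-192. Its listed level was 0 rpm for Tbx5 morphants, against 15.7 rpm, or 18 reads, for MO-Ct embryos. A count of 0 allows up to 3 reads, or 5.17 rpm, in Tbx5 morphants, so miR-194b would be at least 3.03-fold lower there if its 18 MO-Ct reads are taken as exact. With the counting error of both libraries the upper end of its FC was 0.451, which is at least 2.22-fold lower. At the rpm of the MO-Ct library, 9.08 reads would have fallen in the shallower Tbx5 morphant library. The study kept sequences with at least 30 occurrences, but the lowest values listed above 0 were 11 reads in that library and 6 in the MO-Ct library. How that rule was applied to each library is not known. If counts below 11 reads were set to 0 in the Tbx5 morphant library before deposition, up to 10 reads, or 17.2 rpm, could stand behind a listed 0. This is above the level of miR-194b in MO-Ct embryos, and a difference in miR-194b therefore rests on how the low counts were treated. In all, a value of 0 was given to 11 miRNAs (6.36%) for Tbx5 morphants and to 0 miRNAs for MO-Ct embryos, and of the 9 miRNAs with 18 reads or fewer in MO-Ct embryos 6 were among them.

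As the annotation allowed up to 2 mismatches, reads of miR-194a and miR-194b could have been divided between these related names. Their summed level was 131 rpm in Tbx5 morphants, against 155 rpm in MO-Ct embryos, a FC of 0.846 (0.638 to 1.11) that included 1. The 3 gut miRNAs together had 1856 rpm in Tbx5 morphants, against 2119 rpm in MO-Ct embryos, a FC of 0.876 (0.815 to 0.941), which became 0.963 (0.895 to 1.03) after division by the median FC.

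The marker of the liver had few reads. In Tbx5 morphants 31 reads put miR-122 at 53.4 rpm (95% interval 36.3 to 75.8), against 75 reads and 65.2 rpm (51.3 to 81.7) in MO-Ct embryos. Its FC was 0.819 (0.521 to 1.26). The interval spans 2.42-fold from end to end and reached below 0.556, the lower 1.8-fold threshold, so an unchanged level and a decrease of that size could not be told apart at this depth. For miR-217 the same span was 1.05-fold. miR-217 was 279 times as abundant as miR-122 in Tbx5 morphants and 289 times in MO-Ct embryos. In the RefSeq table miR-122 lies inside another such non-coding RNA gene, between alpk2 and nedd4l.

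**Figure D3:**
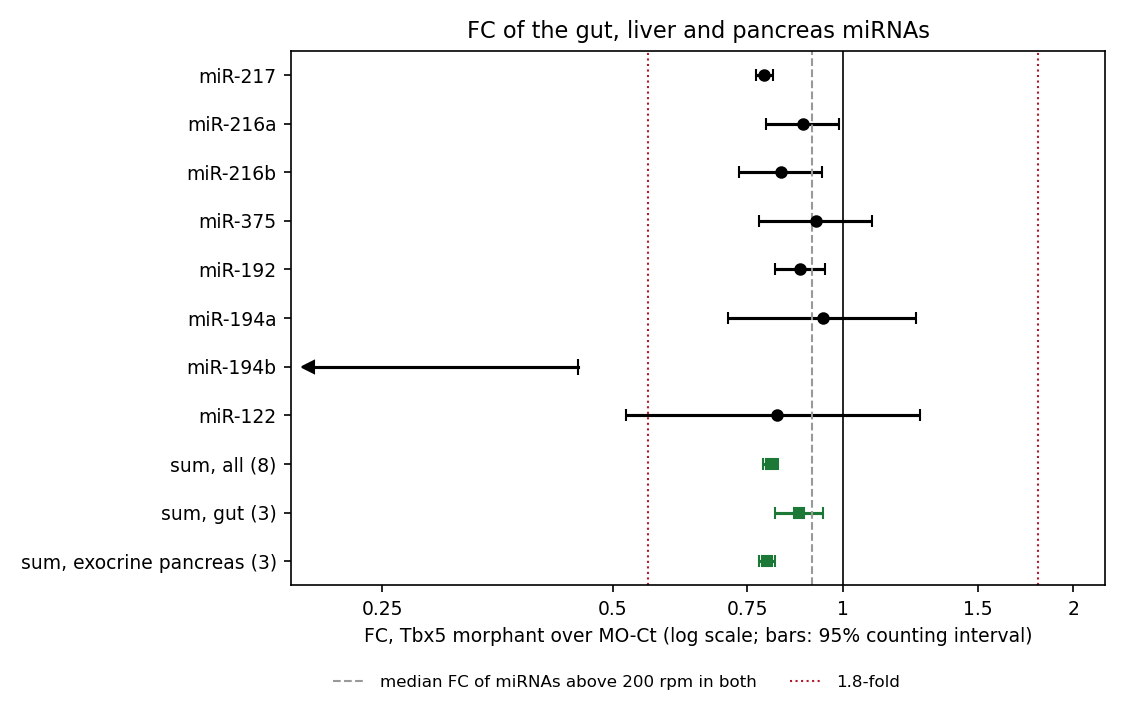
The FC of each miRNA (black circles) and of the summed reads (green squares) is plotted on a log axis with 95% counting intervals. The dashed line is the median FC of 0.910 and the dotted lines are the 1.8-fold thresholds. The interval of miR-217 lies left of the dashed line, those of miR-216a, miR-216b, miR-375, miR-192, miR-194a and miR-122 cross it, and miR-194b has an upper end of 0.451 and no lower end.

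The summed FC of the miRNAs that mark each organ were then compared with each other. Of the 6 pairs among exocrine pancreas, gut, endocrine pancreas and liver, 1 had a ratio of FC whose interval excluded 1. This was the exocrine pancreas relative to the gut, at 0.908 (0.842 to 0.980). The exocrine sum follows miR-217, which held 8638 of its 9474 reads in Tbx5 morphants. miR-216a and miR-216b summed to a FC of 0.861 (0.793 to 0.935), close to that of the gut, 0.876 (0.815 to 0.941). The exocrine pancreas relative to the endocrine pancreas had 0.862 (0.727 to 1.02) and relative to the liver 0.971 (0.631 to 1.53). Here miR-375 alone stands for the endocrine pancreas and miR-122 alone for the liver. miR-7a and miR-7b, found in endocrine pancreas and also in brain, had lower FC of 0.536 and 0.358. They were not included, so the endocrine ratio depends on the marker taken. Among the 7 miRNAs with a FC there are 21 pairs, and the interval left out 1 for 2 of them, miR-217 relative to miR-192, at 0.899 (0.831 to 0.973), and miR-217 relative to miR-216a, given above. A common rescaling cancels in these ratios. The intervals were not adjusted for the number of pairs. How often pairs of all miRNAs differ in this way was not counted. Of the single FC, 103 of 162 had an interval that excluded 1. That is a different measure, so these counts of pairs have no background beside them.

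Among other miRNAs known from digestive organs, miR-148, which is abundant in the liver and pancreas of mammals, was closest to miR-217 in level and among the 2 closest in FC. It had 14942 rpm in Tbx5 morphants, against 18710 rpm in MO-Ct embryos, a FC of 0.799 (0.779 to 0.819), and the FC of miR-217 relative to it was 0.989 (0.954 to 1.02). With 2 libraries such a likeness is a description and rests on 1 ratio. miR-143 and miR-145 mark the smooth muscle of the gut and of vessels. miR-143 had 2504 rpm in Tbx5 morphants, against 2329 rpm in MO-Ct embryos, a FC of 1.07 (1.01 to 1.15), and miR-145 had 58.6 rpm in Tbx5 morphants, against 70.4 rpm in MO-Ct embryos, a FC of 0.832 (0.540 to 1.26). miR-7a and miR-7b, which are found in endocrine pancreas and also in brain, had FC of 0.536 (0.461 to 0.620) and 0.358 (0.276 to 0.459), and neither interval reached that of miR-375. In this list of 5 the interval lay below 1 in 3 and above 1 in 1, beside 45.7% and 17.9% of all miRNAs with a FC.

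The epithelial miR-200 family is shared by the gut, skin and other epithelia. Of the 5 members examined, miR-200a, miR-200b, miR-200c, miR-141 and miR-429, the interval lay below 1 in 2 and above 1 in 1, beside the same background. Among these 5 the lowest FC was 0.859 (0.807 to 0.914) for miR-200a and the highest 1.17 (1.11 to 1.24) for miR-141. Their summed level was 9595 rpm in Tbx5 morphants, against 9536 rpm in MO-Ct embryos. The list left out miR-429b, which had 27.6 rpm in Tbx5 morphants, against 20.0 rpm in MO-Ct embryos, a FC of 1.38 (0.681 to 2.73).

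Around each digestive organ miRNA, the 2 miRNAs nearest in level show how far single miRNAs spread. Next to miR-217 in level, miR-430c had a FC of 0.923 (0.901 to 0.946). Next to miR-192 were miR-146a and miR-125b, with FC of 1.68 (1.56 to 1.81) and 1.10 (1.02 to 1.18), both above that of miR-192. Next to miR-216a were let-7d and miR-456, with FC of 1.09 and 1.03, and next to miR-216b were miR-19c and miR-140, with FC of 0.729 and 0.753. miR-375 stood beside miR-222 at 0.989 and miR-129 at 1.45, miR-194a beside miR-153a at 0.445 and miR-2188 at 1.16, and miR-122 beside miR-132 at 1.70 and miR-338 at 0.777. miR-194b had no close neighbour with a FC, the nearest being miR-489, 0.99 log2 units away.

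By FC, the miRNAs nearest to miR-217 were miR-2189 and miR-148, those nearest to miR-192 were miR-103 and miR-200b, and those nearest to miR-216a were miR-126 and miR-200b. For miR-216b these were miR-101a and miR-27c, for miR-375 miR-92a and miR-430c, for miR-194a miR-724 and miR-196d, and for miR-122 miR-15c and miR-101a. Each of these was within 0.02 log2 units of the miRNA it stood next to, but they were picked for this closeness. Some had few reads, such as miR-2189, with 13 reads in Tbx5 morphants, 33 in MO-Ct embryos and a FC of 0.781 (0.377 to 1.52).

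**Figure D4:**
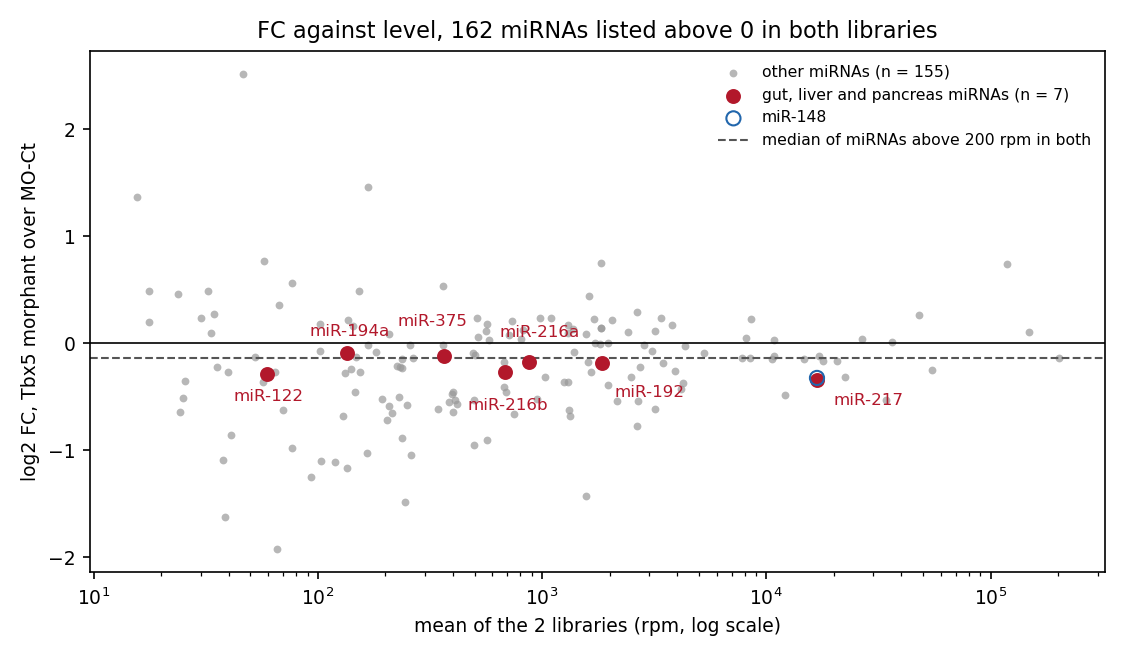
Each point is 1 of the 162 miRNAs that have a FC, with its mean level in rpm on a log axis and its log2 FC. The 7 gut, liver and pancreas miRNAs (red) lie between -0.34 and -0.09 on the log2 scale, close to the dashed median of -0.14, and miR-148 (blue ring) covers the point of miR-217.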

How the data were processed

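The authors prepared small RNA libraries from total RNA, sequenced them on an Illumina GAIIx, trimmed the adaptor and collapsed identical reads of 18 to 33 nt. Sequences with at least 30 occurrences were annotated to the zebrafish part of miRBase, with up to 2 mismatches and up to 2 extra bases at each end. The table that the authors deposited holds an rpm value for each hairpin name in each library. Entries of several loci carry their joined names, and locus numbers were dropped here. The labels name the header of the column that belongs to each library. Reads were recovered by a search over totals from 50000 to 3000000, and the smallest was kept that made all 173 values (100.0%) whole within 0.005 rpm and matched their sum. On these reads the count comparison was the Clopper-Pearson interval of each FC. It lay off 1 for 103 of the 162 miRNAs above 0 in both libraries.

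Ratios of 2 FC have exact conditional intervals of the odds ratio. The miRNAs, lists and rules were chosen with earlier results of these data known. The named miRNAs are those of the 6 families, 5 other digestive and 5 epithelial miRNAs, the 2 nearest to each in level, and the 2 nearest in log2 FC above 10 rpm. Alternatives were pseudocounts of 1 and 10 rpm, division by the median ratio or by a trimmed mean of log ratios, rpm without the 3 most abundant miRNAs, centring on 40 miRNAs nearest in level, summing over letters, and other thresholds. Steps were tested on simulated data. Names and neighbouring genes came from RefSeq (GRCz12tu), to which 12 of 12 loci matched. The software was SciPy 1.17.1, NumPy 2.4.6 and pandas 2.3.3 in Python 3.11.15, with Matplotlib 3.10.9 for plots.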

Additional observations from a re-analysis of the deposited data

How the results depend on the processing

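No paired analysis was possible because there is 1 library for each condition, and no replicate could be left out. A common rescaling moves every FC by the same factor, and for the other changes the cause was not tested. Intervals of a rescaled FC take the rescaling factor as exact. The FC had 60 alternative values, of which 17 fell outside the counting interval and 43 inside. Division by the median ratio gave 0.868 for miR-217, 0.965 for miR-192, 0.963 for the gut sum and 0.885 for the sum of all 8. The trimmed mean gave 0.888, 0.988, 0.985 and 0.905 for the same, and 0.997 for miR-216a. Without the 3 most abundant miRNAs they were 0.870, 0.968, 0.965 and 0.887. Centring on the 40 miRNAs nearest in level gave 0.869 for miR-217, 0.886 for the sum and 1.246 for miR-375. miR-375 and miR-194a were above 1 under all 4 rescalings, at up to 1.246 and 1.14. Summed with miR-194a, miR-194b had 0.846, against 0.330 on its own with its 0 set to 3 reads, where the counting interval ended at 0.451. The number past the thresholds was 0, and 1 with no minimum rpm (miR-194b) or with the lowest FC threshold tried (miR-217). How many of all miRNAs above the minimum rpm pass that lowest threshold was not counted. At any level, 54 of the 162 miRNAs above 0 in both libraries (33.3%) had a lower FC than miR-217. Its passing is therefore not particular to it. The number whose interval excluded 1 was 5 of 8 as deposited and 2 of 8, miR-217 and miR-194b, under each common rescaling. Both counts include miR-194b, listed at 0 in Tbx5 morphants, whose difference rests on how low counts were treated. Of the 7 above 0 in both libraries, 4 had such an interval as deposited, beside 103 of 162 miRNAs. For 1 of the 7, miR-217, it lay below the median FC, beside 34.0%. Pseudocounts moved no value out of its interval. Depth limits miR-122, miR-194a and miR-194b most.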
